A study of Mus musculus with 62 samples.

Results

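The 39 protein-coding Hox genes of the mouse were followed through inguinal fat, gonadal fat and liver. The members were all rows of the gene count table whose symbol was Hoxa, Hoxb, Hoxc or Hoxd followed by a paralog group number from 1 to 13. They made up 39 of 48795 genes, with 11 in the Hoxa, 10 in the Hoxb, 9 in the Hoxc and 9 in the Hoxd cluster. The samples were 62 bulk RNA-seq libraries of Fam13a knockout (KO) and wild-type (WT) C57BL6 mice. Subcutaneous adipose tissue (SAT) was the inguinal depot and visceral adipose tissue (VAT) the gonadal depot. Males on chow and males on a high-fat diet (HFD) each gave SAT, VAT and liver, with 4 WT and 4 KO libraries per tissue and diet. Females on HFD gave SAT and VAT, with 3 WT and 4 KO libraries per depot. HFD was given from 8 weeks of age for 14 weeks and those mice were killed at 22 weeks, while the age of the chow mice used for sequencing was not given in the sources used here. The KO allele lacked exon 5 of Fam13a in the whole body, and both genotypes were otherwise of the same strain. Chow females and female liver were not analysed here, so a depot difference in females was a difference on HFD. No label tied the tissues of a mouse to each other.

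Hox genes encode homeodomain transcription factors that give cells their position along the body axis in the embryo. The genes of a cluster lie in the order in which they are switched on, from the low-numbered genes at the 3′ end, used toward the head, to the high-numbered genes at the 5′ end, used toward the tail, limbs and genital tract. Genes with the same number in different clusters are paralogs with overlapping roles. Adult fibroblasts, fat progenitors and adipocytes keep part of this code, and fat depots are known to differ in it. Pbx and Meis proteins bind DNA together with Hox proteins, and Polycomb and Trithorax complexes keep Hox genes silent or active.

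In the GRCm38 assembly, the Hoxa genes lay on chromosome 6, the Hoxb genes on chromosome 11 from 96194316 to 96368256, the Hoxc genes on chromosome 15 from 102921103 to 103036852 and the Hoxd genes on chromosome 2 from 74668310 to 74765142. RefSeq promoters, here 250 bases before to 50 after a start site on GRCm38.p6, were at hand for 22 of the 39 genes, with 24 promoters in all. Those of Hoxa7, Hoxa9, Hoxa10 and Hoxa13 are printed because Hoxa9 and Hoxa10 were called between the male depots and Hoxa7 was not, and because Hoxa13 was read in female VAT and in no SAT library. All 4 lie on the minus strand and are read 5′ to 3′, and the capitals mark CpG dinucleotides, the sites of vertebrate DNA methylation.
Hoxa7, chr6:52218524-52218823: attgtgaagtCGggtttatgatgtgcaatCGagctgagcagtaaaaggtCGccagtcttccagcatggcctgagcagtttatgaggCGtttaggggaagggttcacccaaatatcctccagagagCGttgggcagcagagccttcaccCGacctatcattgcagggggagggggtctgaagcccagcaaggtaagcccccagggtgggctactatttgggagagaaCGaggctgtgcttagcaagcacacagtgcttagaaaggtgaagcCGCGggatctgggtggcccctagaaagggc
Hoxa9, chr6:52227321-52227620: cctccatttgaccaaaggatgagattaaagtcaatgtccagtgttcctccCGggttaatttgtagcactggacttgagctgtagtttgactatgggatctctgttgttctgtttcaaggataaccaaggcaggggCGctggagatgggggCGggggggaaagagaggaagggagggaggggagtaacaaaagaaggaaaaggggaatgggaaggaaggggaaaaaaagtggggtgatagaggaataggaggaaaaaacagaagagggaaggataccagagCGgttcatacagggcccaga
Hoxa10, chr6:52234890-52235189: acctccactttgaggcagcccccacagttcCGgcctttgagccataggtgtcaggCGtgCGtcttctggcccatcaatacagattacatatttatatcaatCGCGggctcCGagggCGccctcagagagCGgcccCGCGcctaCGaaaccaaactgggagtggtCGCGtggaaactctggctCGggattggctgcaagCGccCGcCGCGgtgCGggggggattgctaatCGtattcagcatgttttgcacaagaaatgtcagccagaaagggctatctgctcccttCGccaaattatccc
Hoxa13, chr6:52260831-52261130: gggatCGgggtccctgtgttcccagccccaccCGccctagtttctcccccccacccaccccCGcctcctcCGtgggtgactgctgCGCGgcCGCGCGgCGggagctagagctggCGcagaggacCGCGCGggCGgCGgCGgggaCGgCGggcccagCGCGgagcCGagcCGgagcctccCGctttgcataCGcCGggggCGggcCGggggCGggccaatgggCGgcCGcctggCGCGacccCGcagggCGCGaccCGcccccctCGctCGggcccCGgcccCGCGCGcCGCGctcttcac

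The Hoxa13 promoter held 45 CpG dinucleotides and had a GC content of 81%, the highest of the 24 Hox promoters in both measures. The printed promoter of Hoxa10 held 21 CpG dinucleotides at 57.3% GC, that of Hoxa7 held 9 at 55.7% and that of Hoxa9 held 4 at 49.7%. Another Hoxa10 promoter, which is not printed, held 12 at 54.3%. Over all 24 Hox promoters the median was 14.5 CpG dinucleotides and 57.7% GC, against 7 and 52.7% over 32851 promoters of the genome. The letters CCAAT, searched on both strands, were found in 15 of 24 Hox promoters (62.5%) and in 37.4% of all promoters, with 1 match each in the printed promoters of Hoxa10 and Hoxa13. The letters TATAAA, searched on both strands, were found in 4 of 24 Hox promoters (16.7%) and in 13.6% of all, with 1 match in the printed promoter of Hoxa10. The other Hoxa10 promoter held no match of either kind. These are descriptions of the sequence, and no factor binding or methylation was measured.

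The libraries held between 4959783 and 28723319 gene counts with a median of 21694089, of which ribosomal RNA took between 0.0129% and 75.4% (median 1.06%). Levels are given as CPM, counts per library size scaled by TMM over all 62 libraries, and levels of different genes are compared only per length, as TPM. Adipocyte markers summed to between 4090 and 15900 CPM in male SAT and between 4820 and 12900 CPM in male VAT, and hepatocyte markers to between 60800 and 112000 CPM in liver. Fam13a counts were lower in KO than in WT by 0.74 on the log2 scale in SAT (SE 0.17, FDR 0.0323) and by 1.01 in VAT (SE 0.38, FDR 0.474), in edgeR's quasi-likelihood test. These counts came from the exons that the allele keeps as well. Several libraries stood apart. The chow VAT libraries WT 2 and KO 1 held epididymis transcripts at 5010 and 11300 CPM in sum, and the chow KO 4 and HFD WT 4 VAT libraries held testis transcripts at 443 and 1440 CPM. The male SAT libraries of chow WT 1 to 4, chow KO 4 and HFD WT 2 and the female SAT library KO 2 held lymph node B and T cell transcripts at 164 to 506 CPM, against at most 22 CPM in the other male SAT libraries. The other male VAT libraries were not free of such transcripts, with epididymis markers at up to 63.2 CPM and testis transcripts at up to 2.61 CPM. Skeletal muscle markers ranged from 32.5 to 16500 CPM in male SAT and were not used to set libraries apart. Counts that moved by over 1.5 times, or that lost a call, without the libraries that stood apart are given with and without them. In bulk tissue, fewer cells of a type and less RNA per cell cannot be told apart. No lane of a flow cell held libraries of both diets, and lanes 4 and 7 alone held both depots of a sex.

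Fat expressed most of the Hox genes and liver few of them. Of the 39 members, 34 had at least 1 count in male SAT, 36 in male VAT, 32 in female SAT and 35 in female VAT, against 21 in liver. Hoxc12 and Hoxd12 were at 0 in all 62 libraries. The summed level of the 39 genes had a median of 110 CPM in male SAT (62.6 to 146), 109 CPM in male VAT (49 to 236), 126 CPM in female SAT (112 to 136) and 137 CPM in female VAT (115 to 153). In liver the sum had a median of 3.75 CPM, from 2.31 to 6.02, below every fat library. The male VAT sum pooled both diets, which differed there, as given below. The fat groups shared several of their highest genes and differed in others, as the map of median levels shows.

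**Figure D1:**
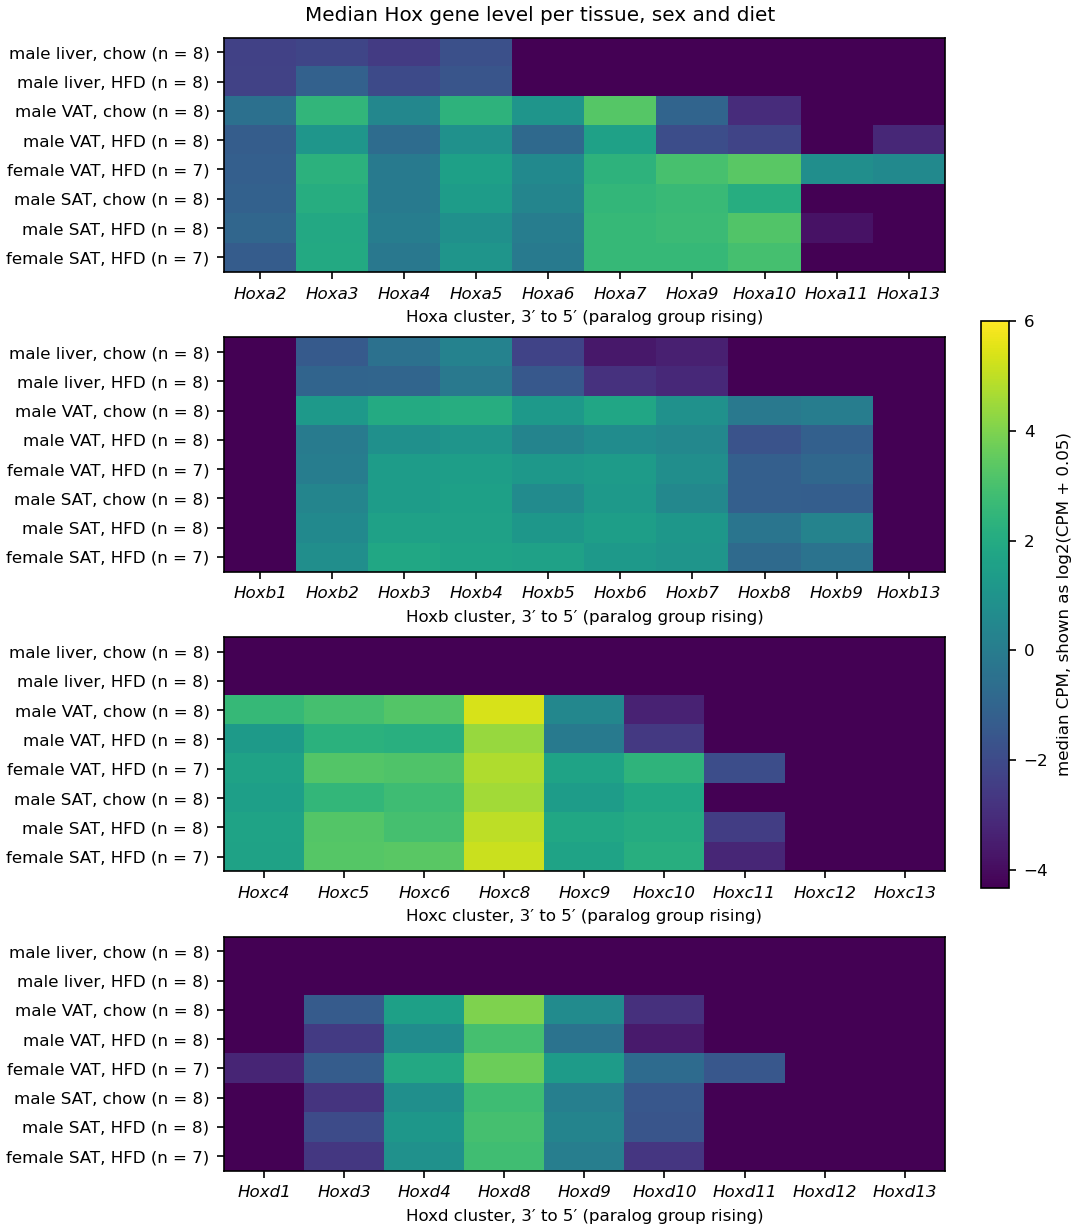
Median level of each Hox gene reported here (columns, ordered from paralog group 1 toward 13 in each cluster) in 8 combinations of tissue, sex and diet (rows, with n libraries), as log2(CPM + 0.05) in color. Hoxc8 is the brightest gene in all 6 fat rows, but color is not scaled by gene length and does not rank genes. Male VAT rows darken from Hoxa9 and Hoxc9 on, and Hoxa11, Hoxa13 and Hoxd11 are colored mainly in female VAT.

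Per length, Hoxc8 had the highest median of all members in every fat group, at 36.2 TPM in male SAT, 31 TPM in male VAT, 39.9 TPM in female SAT and 34.7 TPM in female VAT. Hoxc8 patterns the thoracic skeleton in the embryo, and the next genes on this scale were of paralog groups 4 to 10. In male SAT they were Hoxc6, Hoxc5, Hoxd8 and Hoxa10, and in male VAT Hoxd8, Hoxc6, Hoxc5 and Hoxc4. In female SAT they were Hoxc6, Hoxc5, Hoxd8 and Hoxc10, and in female VAT Hoxd8, Hoxc6, Hoxc5 and Hoxa10. With the longest transcript in place of merged exons as the length, 16 of these 20 genes were again among the 5 highest of their group. Hoxc5 shares 166 bases of exon with Hoxc10 on the same strand, so its level is uncertain.

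The members with the most counts in liver were those of the 3′ end. Of the 11 members with over 10 counts in liver, Hoxb4 had the most at 222, followed by Hoxb3 at 132, Hoxb2 at 84, Hoxa5 at 78 and Hoxa3 at 75. Among the other 6 were Hoxa2, Hoxa4, Hoxb5, Hoxb6 and Hoxb7, and no gene of the Hoxc or Hoxd cluster and none beyond paralog group 7 was among the 11. A further 10 members had 1 to 10 counts over 16 libraries. The 18 members at 0 included Hoxa9, Hoxa10, Hoxa11, Hoxb9, Hoxc9, Hoxc10 and Hoxd10. Liver descends from foregut endoderm, and its stroma from other mesoderm than the fat depots.

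Each of the 27 members tested was higher in SAT than in liver, and likewise in VAT, both against the same liver libraries. A member was called where edgeR's quasi-likelihood test, with Benjamini-Hochberg adjustment over all genes tested, gave a false discovery rate (FDR) under 10%. The background was large, as 46.1% of all genes were called higher and 37.3% lower in SAT than in liver, and 46.3% higher and 36.3% lower in VAT. The median log2 difference of the members was 6.27 in SAT and 5.96 in VAT, against 0.18 and 0.19 over all genes. A fit within liver alone tested only 2 members, Hoxb3 and Hoxb4. The other members passed the count filter through fat, where they were higher, so their direction was largely set by the filter. The smallest difference was that of Hoxa2, at 0.90 and 0.89, and the largest that of Hoxc8, at 10.68 and 10.79. For genes at 0 in liver only a lower bound can be given, from 3 counts over the group as the floor. Hoxa10 was at least 488-fold higher in male SAT than in liver and at least 29.7-fold higher in male VAT. Hoxc10 was at least 279-fold higher in SAT and at least 12.1-fold higher in VAT. Hoxb9 was at least 53.9-fold higher in SAT and at least 180-fold higher in VAT, and the latter bound was 36.9-fold without the 4 VAT libraries that held epididymis or testis transcripts.

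Between the male depots, the 5′ genes Hoxa9, Hoxa10, Hoxc9 and Hoxc10 were lower in VAT than in SAT. Hoxc10, a paralog group 10 gene that patterns the lumbar spine and hindlimb, ranged from 2.49 to 7.40 CPM in the 16 male SAT libraries with a median of 3.92. In the 16 male VAT libraries it ranged from 0 to 1.03 CPM with a median of 0.0626. The ranges did not overlap. Ranges were compared for the members only, here and below, and Hoxc10 alone did not overlap between male VAT and male SAT. The log2 difference was -5.03 (SE 0.46, FDR 1.52e-09). Its paralog Hoxa10, which also acts in the uterus and the reproductive tract, ranged from 2.59 to 12.3 CPM in male SAT (median 7.52) and from 0 to 2.81 CPM in male VAT (median 0.107), a log2 difference of -4.21 (SE 0.55, FDR 1.35e-06). Of the VAT libraries only the highest, HFD KO 1, lay above the lowest SAT library.

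The 2 called genes of paralog group 9 moved the same way by less. Hoxa9 ranged from 3.27 to 10.6 CPM in male SAT (median 6.60) and from 0 to 3.95 CPM in male VAT (median 0.346), with a log2 difference of -3.00 (SE 0.50, FDR 5.43e-05). Hoxc9 ranged from 1.47 to 4.46 CPM in SAT (median 3.16) and from 0.353 to 1.99 CPM in VAT (median 1.03), with a difference of -1.45 (SE 0.21, FDR 5.49e-06). Both genes help to set thoracic and forelimb position in the embryo. The ranges of each gene overlapped, since the highest VAT libraries reached the lowest of SAT. The paralogs Hoxb9 and Hoxd9 were not called between the male depots.

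Among the genes of paralog groups 1 to 8, 2 of 20 were called over all libraries, both higher in VAT. Hoxd8 differed by 0.96 on the log2 scale (SE 0.25, FDR 0.00456) and Hoxc4 by 0.48 (SE 0.22, FDR 0.0976). The call of Hoxc4 was lost in 20 of 32 fits that each left out 1 library, with differences from 0.38 to 0.50 in those fits. The other 5 calls were kept in every such fit. In all, 6 of the 27 members tested were called, 2 higher and 4 lower, against 20.4% of all genes higher and 14.7% lower, and the median log2 difference was 0.08 for the members and 0.02 for all genes. All 4 calls in the lower direction were among the 7 tested genes of groups 9 and 10. Of these 4, Hoxa10 and Hoxc10 were not tested within male VAT. They passed the count filter through SAT, where they were higher, so their direction was largely set by the filter. Hoxa9 and Hoxc9 passed it within each depot. A gene near 0 in both depots was not tested.

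**Figure D2:**
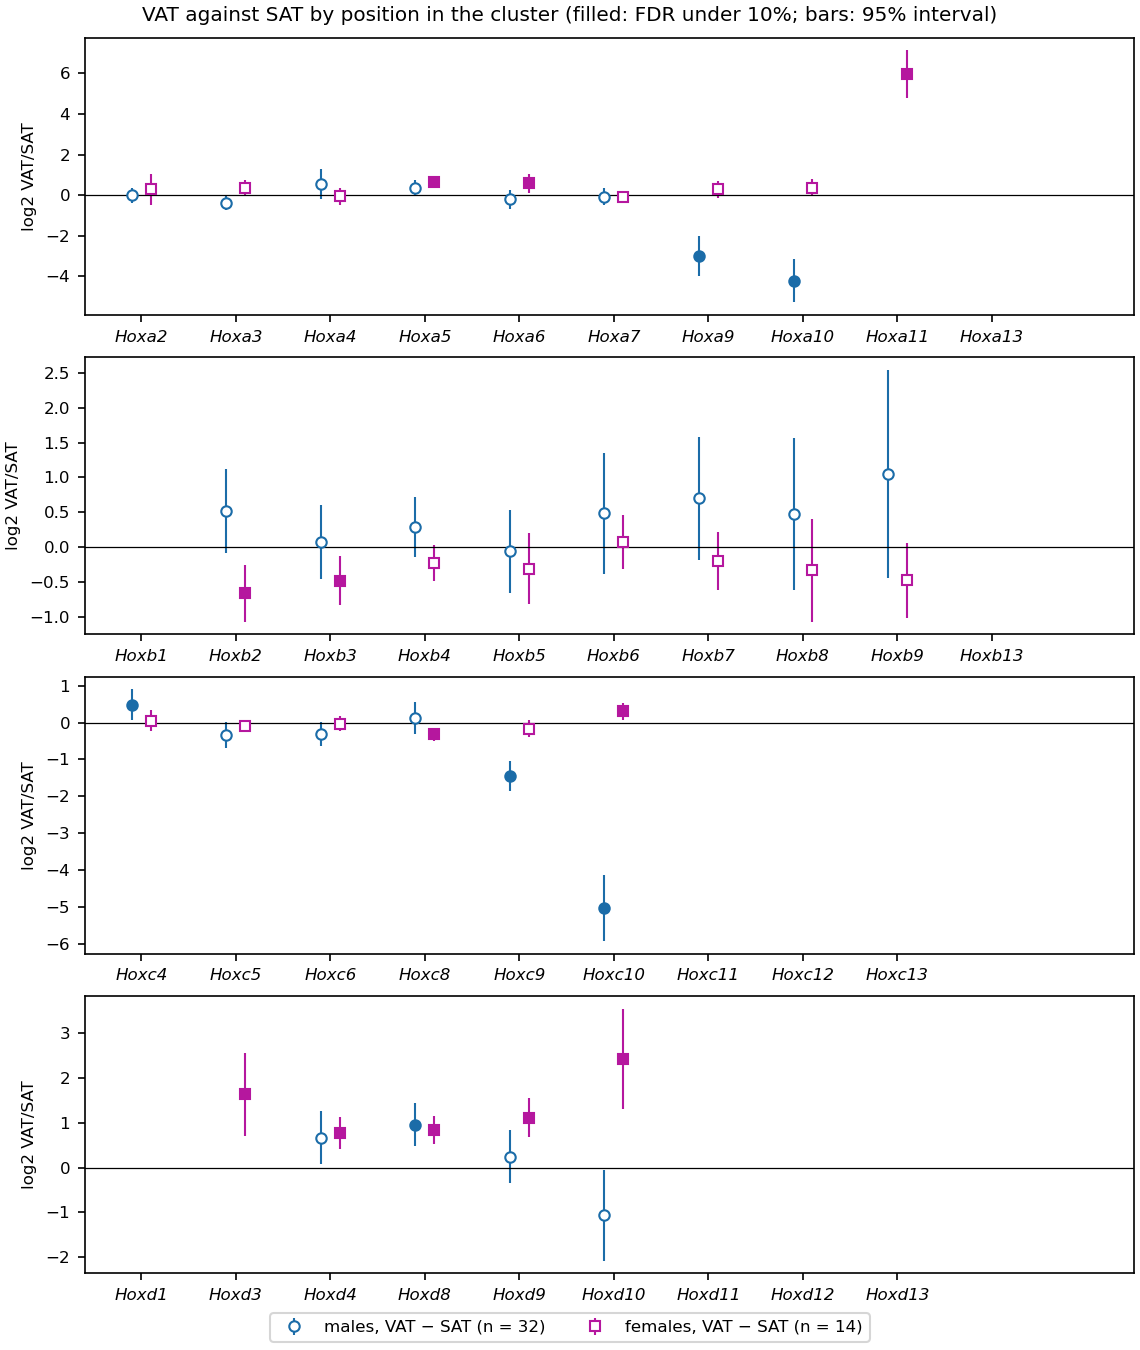
Log2 difference of VAT against SAT for the tested Hox genes reported here, by position in the 4 clusters, in males (circles, n = 32 libraries) and females (squares, n = 14). Bars are 95% intervals and filled symbols have an FDR under 10%. Male values drop to -5.03 at Hoxc10 while female values lie near 0 there and rise to 5.97 at Hoxa11. Female Hoxa13 and Hoxd11 are not drawn, since both were at 0 in female SAT.

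Without the 4 VAT libraries with epididymis or testis transcripts, 7 members were called, which included all 6 of the full set, against 15.5% of all genes higher and 14.2% lower. Hoxc10 then differed by -4.86, Hoxa10 by -4.69, Hoxa9 by -3.21 and Hoxc9 by -1.40 on the log2 scale. The added gene was Hoxd10, another group 10 gene, at -2.33 (FDR 0.00113). Without the SAT libraries with lymph node transcripts, 9 members were called and all 9 were lower in VAT, against 22.1% of all genes higher and 15.9% lower. Hoxd8 at 0.53 (FDR 0.158) and Hoxc4 at 0.05 (FDR 0.884) were then not called. The 4 genes of groups 9 and 10 were called, and so were Hoxa3 at -0.715, Hoxa6 at -0.63, Hoxa7 at -0.51, Hoxc5 at -0.735 and Hoxc6 at -0.63. Without the libraries of both kinds, 12 members were called and all 12 were lower, against 20.3% and 18.4% of all genes, with Hoxc10 at -4.80, Hoxa10 at -4.74, Hoxa9 at -3.22 and Hoxc9 at -1.68. The 4 lower genes of groups 9 and 10 were called in each of these 3 sets, and the 2 higher calls in the first of them alone. Lane 4 alone held 1 SAT and 7 VAT libraries, too few SAT libraries to show their spread. The values there were -5.51 for Hoxc10, -5.09 for Hoxa10, -3.70 for Hoxa9, -2.27 for Hoxc9, -0.81 for Hoxc4 and -0.31 for Hoxd8.

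**Figure D3:**
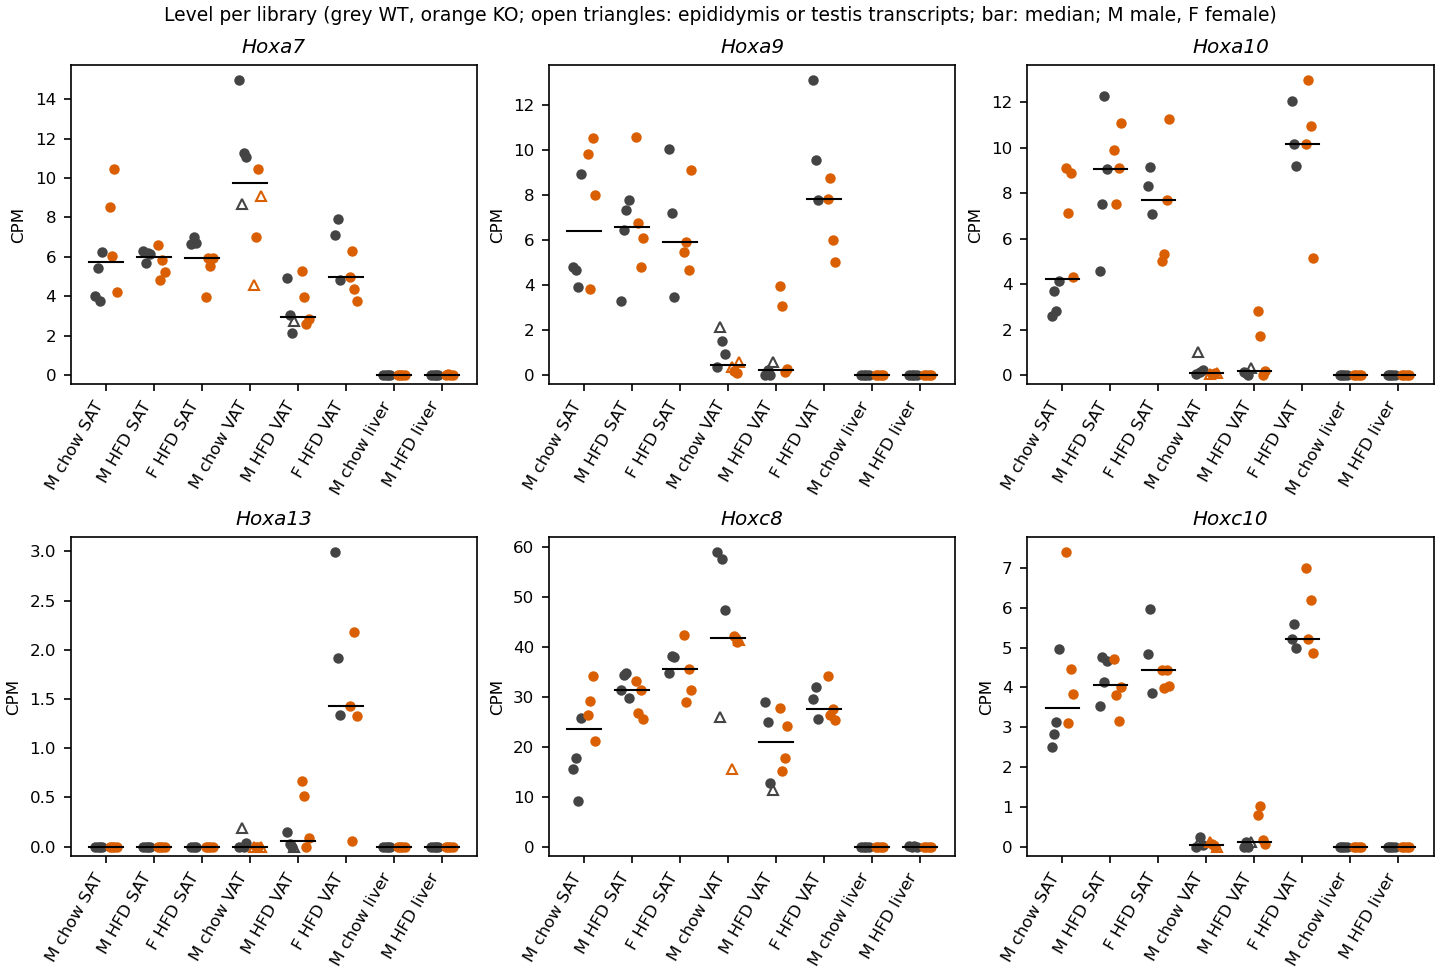
CPM of Hoxa7, Hoxa9, Hoxa10, Hoxa13, Hoxc8 and Hoxc10 in every library, by sex (M, F), diet and tissue, with WT in grey, KO in orange, the median as a bar and open triangles for the 4 male VAT libraries with epididymis or testis transcripts. Hoxc10 in male VAT stays at or below 1.03 CPM while every other fat group stays at or above 2.49 CPM, and Hoxa13 is at 0 in all SAT libraries.

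Within each diet the 4 posterior genes stayed lower in male VAT, while the other members called were higher on chow and lower on HFD. On chow, 19 of 26 members were called, 15 higher and 4 lower in VAT, against 15.7% and 16.4% of all genes. The 4 lower ones were Hoxc10 at -5.96, Hoxa10 at -4.61, Hoxa9 at -3.41 and Hoxc9 at -1.08. Among the 15 higher ones were Hoxd8 at 1.73, Hoxc4 at 1.06, Hoxb3 at 1.01, Hoxc8 at 0.89 and Hoxa7 at 0.65. On HFD, 16 of 26 were called and all 16 were lower in VAT, against 25.1% of all genes higher and 19.5% lower. Hoxc10 differed by -4.32, Hoxa10 by -4.27, Hoxa9 by -3.22 and Hoxc9 by -1.83, and Hoxc5 by -0.87, Hoxb3 by -0.84, Hoxa7 by -0.78 and Hoxc8 by -0.60. On chow, however, 5 of the 8 SAT libraries held lymph node transcripts and 3 of the 8 VAT libraries epididymis or testis transcripts. Without them 3 SAT libraries, all KO, and 5 VAT libraries remained, and 4 of 26 members were called, against 1.27% of all genes higher and 0.454% lower. They were again Hoxa9, Hoxa10, Hoxc9 and Hoxc10, all lower in VAT. Skeletal muscle markers summed to 124 to 16500 CPM in these 3 SAT libraries and 44.6 to 215 CPM in the 5 VAT libraries. None of the 15 higher calls was left, and Hoxb3 was then at 0.74, Hoxd8 at 0.68, Hoxc8 at 0.46, Hoxc4 at 0.41 and Hoxa7 at 0.05. On HFD without such libraries 18 of 26 members were called and all 18 were lower, against 24.9% and 24% of all genes, with Hoxc10 at -4.25 and Hoxa7 at -0.81.

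In females, Hoxa11, Hoxa13 and Hoxd11 were read in every VAT library and were at or near 0 in SAT. Hoxa11, a regulator of the uterus, limb and kidney, ranged from 0.968 to 2.89 CPM in the 7 female VAT libraries with a median of 1.69. In female SAT it had counts in 1 of 7 libraries, at 0.11 CPM, and the groups did not overlap. The log2 difference was 5.97 (SE 0.60, FDR 6.67e-06). Hoxa13, which acts at the 5′ end of the cluster in the hindgut and genital tract, was at 0 in all 16 male and 7 female SAT libraries. In female VAT it ranged from 0.0555 to 3.00 CPM with a median of 1.43, at least 86.3-fold higher than in female SAT. Hoxd11 ranged from 0.159 to 2.33 CPM in female VAT (median 0.302) and was at 0 in female SAT, at least 32.3-fold higher. Hoxc11, of the same paralog group, had counts in 4 of 7 female and 10 of 16 male SAT libraries. Of the members, Hoxa5, Hoxa11, Hoxa13 and Hoxd11 had ranges in female VAT wholly above those in female SAT. The share of all genes with such ranges was not computed.

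In all, 14 of the 31 members tested were called between the female depots, 11 higher and 3 lower in VAT, against 13.2% and 14.3% of all genes. All 6 tested Hoxd genes were higher, with Hoxd10 at 2.43 (SE 0.57, FDR 0.00921), Hoxd3 at 1.64, Hoxd9 at 1.12, Hoxd8 at 0.84 and Hoxd4 at 0.77 on the log2 scale beside Hoxd11. Hoxd3 and Hoxd4 share exon sequence on the same strand and are uncertain. Fits within SAT did not test Hoxa11, Hoxa13, Hoxd3, Hoxd10 or Hoxd11. These genes passed the count filter through VAT, where they were higher, so their direction was largely set by the filter. In the Hoxa cluster Hoxa5 was higher by 0.64 (SE 0.14, FDR 0.00603) and Hoxa6 by 0.58 (FDR 0.0927). In the Hoxc cluster Hoxc10 was higher by 0.31 (SE 0.12, FDR 0.0851). The 3 lower genes were Hoxb2 at -0.66, Hoxb3 at -0.48 and Hoxc8 at -0.32. Calls of Hoxa6, Hoxb3 and Hoxc10 were lost in 9, 8 and 9 of 14 fits that left out 1 library, and the other 11 calls were kept in every such fit. Without the SAT library with lymph node transcripts Hoxb3 at -0.435 and Hoxc10 at 0.28 were not called. Lane 7 alone, with 2 SAT and 6 VAT libraries, called only Hoxa11, at 7.97 (SE 1.18, FDR 0.0272).

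Of the 4 genes that were lower in male VAT, Hoxa9, Hoxa10 and Hoxc9 were not called in females and Hoxc10 was called higher. Hoxa10 ranged from 5.03 to 11.3 CPM in female SAT (median 7.68) and from 5.13 to 13 CPM in female VAT (median 10.2), and its log2 difference of 0.38 had a 95% interval from -0.03 to 0.79. Hoxa9 ranged from 3.45 to 10.1 CPM in SAT (median 5.92) and from 5.03 to 13.1 CPM in VAT (median 7.83), with a difference of 0.29 and an interval from -0.15 to 0.73. Hoxc9 differed by -0.16, with an interval from -0.40 to 0.07. For Hoxc10, female SAT ranged from 3.87 to 5.98 CPM and female VAT from 4.87 to 7.0 CPM. These intervals lie apart from the male intervals of the same genes, which ran from -5.28 to -3.14 for Hoxa10 and from -3.98 to -2.02 for Hoxa9.

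The difference between the sexes was itself tested among the 30 HFD fat libraries. The VAT against SAT difference was greater in females than in males for 17 of 31 members and smaller for none, against 14.3% of all genes in the first direction and 17.3% in the second. Hoxc10 led with a difference of differences of 4.61 on the log2 scale (SE 0.54, FDR 9.25e-07), followed by Hoxa10 at 4.60 (SE 0.74, FDR 6.4e-05) and Hoxc9 at 1.67 (SE 0.30, FDR 0.000213). Further 5′ genes called were Hoxa11 at 6.24, Hoxd10 at 3.84, Hoxa9 at 3.39 and Hoxd9 at 1.75. By position, 3 of 3 tested genes of group 10, 3 of 4 of group 9 and 10 of 21 of groups 1 to 8 were called. The genes of group 10 and Hoxa11 were not tested within male VAT. They passed the count filter through groups where they were higher, so their direction here was partly set by the filter. For Hoxa13 and Hoxd11 the interaction could not be estimated, since both were at 0 in the female SAT libraries. Without the libraries that stood apart, 19 were called, which included all 17, with Hoxa4 and Hoxb9 added, against 14.6% of all genes in the first direction and 17.8% in the second. Hoxd8 lost its call in 11 of 30 fits that left out 1 library, and the other 16 calls were kept in every fit.

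The sexes were also compared within each depot on HFD. In SAT, 2 of 26 members were called, Hoxc6 at 0.42 (SE 0.11, FDR 0.0143) and Hoxc8 at 0.22 (SE 0.09, FDR 0.0839), both higher in females, against 13.5% of all genes higher and 13.1% lower. Hoxc8 lost its call in 8 of 15 fits that left out 1 library, and without the 2 SAT libraries with lymph node transcripts Hoxb9 was called lower in females as well. In VAT, 21 of 31 members were called and all 21 were higher in females, against 19.5% of all genes higher and 20.0% lower. A fit within male VAT tested 24 members, without Hoxa10, Hoxa11, Hoxa13, Hoxc10, Hoxd3, Hoxd10 and Hoxd11. These genes passed the count filter through female VAT, where they were higher, so their direction was largely set by the filter. The log2 difference was 4.76 for Hoxc10 (SE 0.56, FDR 3.18e-05), 4.43 for Hoxa10 (SE 0.79, FDR 0.00064), 3.49 for Hoxa9 and 1.64 for Hoxc9. Toward the 5′ end it was 5.33 for Hoxa11, 3.73 for Hoxa13, 3.55 for Hoxd11 and 2.77 for Hoxd10. Female VAT lay wholly above male HFD VAT for Hoxa9, Hoxa10, Hoxa11, Hoxc5, Hoxc9, Hoxc10, Hoxc11 and Hoxd9. How many of all genes lay apart in this way was not computed. The female and male gonadal depots lie beside different organs, and the comparison holds sex and anatomy together.

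Single libraries within VAT carried further 5′ genes. In female VAT, the KO 2 library had 0.0555 CPM of Hoxa13, the lowest of the 7, and 2.55 CPM of Hoxd10 and 2.33 CPM of Hoxd11, the highest of the 7. It also had 24.3 CPM of Pgr, the progesterone receptor, against 0.129 to 1.71 CPM in the other female VAT libraries and 2.02 to 37.9 CPM in female SAT. Pgr was 1 of 6 markers taken for ovary and uterus, of which 1 was at 0 in both female depots, and their sum reached 25.4 CPM in female VAT and 38.4 CPM in female SAT. In male VAT, the HFD KO 1 and KO 2 libraries had 3.95 and 3.08 CPM of Hoxa9, 2.81 and 1.71 CPM of Hoxa10 and 0.669 and 0.513 CPM of Hoxa13. Epididymis markers in the HFD KO VAT libraries summed to at most 5.13 CPM and testis transcripts to at most 2.61 CPM. The chow WT 2 library was the only male VAT library with Hoxd13, at 0.248 CPM, and held the most Hoxb13, at 0.743 CPM, beside its epididymis transcripts. The part of other tissues in these levels was not tested.

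HFD was accompanied by lower Hox levels in male VAT. The summed level of the 39 genes ranged from 112 to 236 CPM in the 8 chow VAT libraries (median 150) and from 49 to 106 CPM in the 8 HFD VAT libraries (median 65.9), without overlap. Of 24 members tested, 21 were called and all 21 were lower on HFD, against 21% of all genes higher and 23.2% lower. The median log2 difference was -1.34 for the members and -0.04 for all genes. By cluster, 8 of 8 tested Hoxb genes, 6 of 8 Hoxa genes, 4 of 5 Hoxc genes and 3 of 3 Hoxd genes were called, and Hoxa4, Hoxa9 and Hoxc9 were not. By position, 19 of 20 tested genes of groups 1 to 8 and 2 of 4 of group 9 were called, and a difference between these groups was not tested.

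Hoxa7 had the smallest p. It ranged from 4.55 to 15 CPM on chow (median 9.77) and from 2.12 to 5.29 CPM on HFD (median 2.93), and its log2 difference was -1.51 (SE 0.25, FDR 0.000294). Hoxb3, a gene of hindbrain and neck position, ranged from 2.47 to 13.2 CPM on chow (median 3.91) and from 1.04 to 2.20 CPM on HFD (median 1.78), with a difference of -1.74 (SE 0.34, FDR 0.00108). It was the only member whose chow and HFD ranges in VAT did not overlap, and its exons run antisense to Hoxb3os over 2250 bases. Hoxc8 ranged from 15.6 to 59.0 CPM on chow (median 41.8) and from 11.3 to 29.0 CPM on HFD (median 20.9), with a difference of -1.04 (SE 0.27, FDR 0.00691). Hoxa3 fell by 1.31, Hoxa5 by 1.49 and Hoxa6 by 1.79 on the log2 scale, all called.

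**Figure D4:**
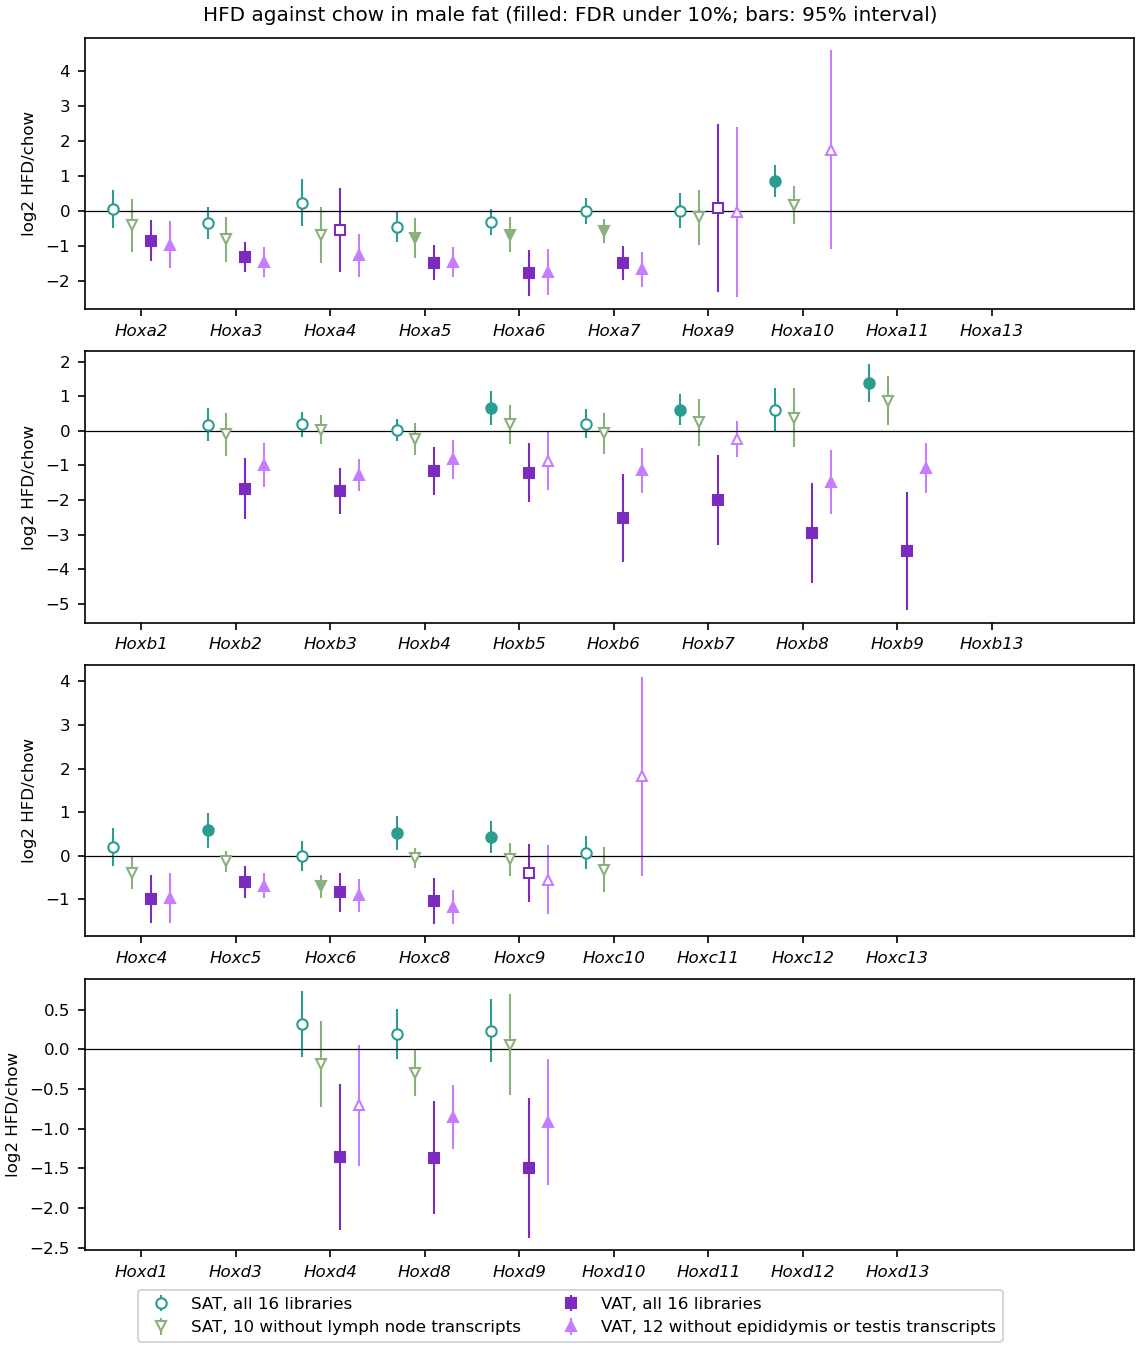
Log2 difference of HFD against chow for the tested Hox genes reported here, by position in the 4 clusters, in male SAT and male VAT. SAT is shown for 16 libraries and for the 10 below the level set for lymph node transcripts. VAT is shown for 16 libraries and for the 12 below the levels set for epididymis and testis transcripts. Bars are 95% intervals and filled symbols have an FDR under 10%. VAT values lie below 0 for nearly all genes in both sets, with a median of -1.34 in the full set, while the 7 genes called in all 16 SAT libraries lie above 0 and the 4 other genes called in the 10 libraries lie below 0.

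Of the 4 libraries that stood apart in VAT, 3 were on chow. Among these, the libraries with epididymis transcripts held the highest Hoxb6, Hoxb7, Hoxb8 and Hoxb9 levels in male VAT. Hoxb9 had 18.9 CPM in chow WT 2 and 14.3 CPM in chow KO 1, the libraries with epididymis transcripts, against 0.584 to 1.35 CPM in the other chow VAT libraries. Its log2 difference was -3.47 in all libraries (SE 0.88, FDR 0.0061) and -1.08 without the 4, which included those with testis transcripts. Without them, 18 of 26 members were called and all 18 were lower on HFD, against 24.3% of all genes higher and 24.2% lower. Of the 21 called in the full set, 17 were among the 18, those lost included Hoxb5, Hoxb7 and Hoxd4, and Hoxa4 was gained. Chow WT 2 and chow KO 1 were also the libraries whose removal, each alone, ended the call of Hoxb7, at -1.17 and -1.20. Hoxa7 then differed by -1.68, Hoxa5 by -1.48, Hoxa3 by -1.46, Hoxb3 by -1.28, Hoxa4 by -1.28 and Hoxc8 by -1.18. For these 6 genes the 5 chow and 7 HFD libraries did not overlap, though a share of all genes was not computed. Hoxa7, for instance, ranged from 7.03 to 15 CPM on chow and from 2.12 to 5.29 CPM on HFD. Epididymis markers still differed between these libraries. They summed to 3.26 to 63.2 CPM in the 5 on chow (median 51.3) and 0.196 to 5.13 CPM in the 7 on HFD (median 0.356). The part of epididymis or testis cells in the diet differences was not tested beyond these values and the covariate below.

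The epididymis markers and the fibroblast and progenitor markers also differed between the diets. The epididymis sum ranged from 1.91 to 11300 CPM on chow and from 0.196 to 5.13 CPM on HFD. With it as a covariate 9 of the 24 members were called, all lower on HFD, against 16.5% of all genes lower, among them Hoxa7 at -1.82, Hoxa5 at -1.82, Hoxc8 at -1.73 and Hoxa3 at -1.64, while Hoxb3 was at -0.57 (FDR 0.192). The fibroblast and progenitor sum ranged from 827 to 1790 CPM on chow (median 1120) and from 1050 to 2280 CPM on HFD (median 1710), higher where the Hox genes were lower, and with it as a covariate 10 members were called, all lower, against 14.6% of all genes. The adipocyte sum ranged from 4820 to 12900 CPM on chow (median 11300) and from 5140 to 10700 CPM on HFD (median 7940). Its median was thus lower where the Hox genes were lower, and it was not used as a covariate. Mesothelium markers ranged from 87.6 to 215 CPM on chow and from 34.1 to 144 CPM on HFD. With their sum as a covariate 15 members were called, all lower, against 19% of all genes. No Hoxc gene was among the 15, with Hoxc4 at -0.81 (FDR 0.118), Hoxc8 at -0.56 (FDR 0.201), Hoxc6 at -0.55 (FDR 0.168) and Hoxc5 at -0.26 (FDR 0.396), while Hoxb3 was at -2.18 and Hoxa7 at -1.06. Within WT alone 11 members were called, all lower, against 13.5% of all genes, and Hoxa7 differed by -1.90 in WT (FDR 0.00588) and by -1.14 in KO (FDR 0.0421). The chow VAT libraries came from 1 lane and the HFD libraries from others, so diet and lane cannot be told apart.

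In male SAT the calls between the diets depended on the libraries with lymph node transcripts. Over all 16 libraries, 7 of 26 members were called and all 7 were higher on HFD, against 28.5% of all genes higher and 29.6% lower. Hoxb9 ranged from 0.192 to 0.839 CPM on chow (median 0.374) and from 0.609 to 1.53 CPM on HFD (median 1.16), a log2 difference of 1.38 (SE 0.28, FDR 0.0014). Hoxa10 ranged from 2.59 to 9.13 CPM on chow (median 4.23) and from 4.58 to 12.3 CPM on HFD (median 9.09), a difference of 0.85 (SE 0.24, FDR 0.00855). The other called genes were Hoxb5, Hoxb7, Hoxc5, Hoxc8 and Hoxc9, from 0.43 to 0.66, and Hoxc9 lost its call in 8 of 16 fits that left out 1 library.

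All 4 chow WT SAT libraries held lymph node transcripts, as did chow KO 4 and HFD WT 2. In the 10 other libraries, 3 on chow and all KO and 7 on HFD, skeletal muscle markers differed widely. They summed to 124 to 16500 CPM on chow (median 623) and 32.5 to 1620 CPM on HFD (median 121). The part of muscle in the differences was not tested. Among these 10 libraries, 4 members were called and all 4 were lower on HFD, against 12.8% of all genes higher and 12% lower. The 4 called were Hoxc6 at -0.71 (FDR 0.00913), Hoxa7 at -0.58 (FDR 0.0517), Hoxa5 at -0.78 (FDR 0.098) and Hoxa6 at -0.68, and none of them was among the 7 called over all 16. Of the 7, Hoxb9 at 0.87 (FDR 0.127), Hoxb7 at 0.25, Hoxb5 at 0.19 and Hoxa10 at 0.16 were above 0 there, and Hoxc5 at -0.13, Hoxc9 at -0.083 and Hoxc8 at -0.046 were below. Within WT alone 11 members were called higher, against 28.5% of all genes. Within KO alone 0 were called, against 8.19% of all genes higher, and with the lymph node sum as a covariate 0, against 13.1%. The summed Hox level in SAT was 62.6 to 146 CPM on chow and 105 to 134 CPM on HFD, and in the 10 libraries 109 to 146 CPM and 105 to 134 CPM. The part of lymph node cells in the 7 differences was not tested beyond these values.

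The diet difference was then compared between the male depots. It was more negative in VAT than in SAT for 19 of 27 members and more positive for none, against 17.6% and 17.5% of all genes. The smallest p-values were those of Hoxb9 at -4.79 (SE 0.92, FDR 0.000444), Hoxb3 at -1.92 (SE 0.39, FDR 0.00072), Hoxa7 at -1.48 (SE 0.32, FDR 0.00129), Hoxb8 at -3.55 (SE 0.79, FDR 0.00161) and Hoxc8 at -1.53 (SE 0.35, FDR 0.00195), as log2 differences of differences. Without the libraries of either kind, 6 members were called, all among the 19, against 4.53% of all genes lower and 6.72% higher. They were Hoxb9 at -1.93, Hoxb8 at -1.87, Hoxb3 at -1.39, Hoxc8 at -1.11, Hoxa7 at -1.09 and Hoxc5 at -0.53. That set kept 3 chow SAT libraries, all KO, with skeletal muscle markers at up to 16500 CPM. Of the 3 tested genes of group 10, 0 were called in the full set. Hoxc10 and Hoxa10, which led the male depot difference, were among these 3. They had only 44 and 117 counts over the 16 male VAT libraries. Without the libraries of either kind Hoxc10 was at 2.14 (SE 1.12) and Hoxa10 at 1.80 (SE 1.38). With standard errors of this size, the absence of a call does not show that diet left their depot difference unchanged.

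In liver only Hoxb3 and Hoxb4 had enough counts for a test. Hoxb4, the most abundant member there, had a median of 1.15 CPM over 16 libraries. Its log2 difference of HFD against chow was -0.26 (SE 0.27, FDR 0.507) and that of Hoxb3 -0.58 (SE 0.32, FDR 0.176). Neither was called by edgeR's quasi-likelihood test or by DESeq2, and 0 of 2 had an unadjusted p under 0.05, against 40.8% of all genes called.

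Fam13a genotype called no Hox gene. In SAT, 0 of 27 members were called in edgeR's quasi-likelihood test over 23 libraries of both sexes, against 4.33% of all genes, and the smallest FDR was 0.332, that of Hoxa10 at 0.38 (SE 0.20). In VAT 0 of 31 were called over 23 libraries against 0.00527% of all genes, in liver 0 of 2 against 0%, in male fat 0 of 27 against 3.97%, and in the test of a genotype difference between the male depots 0 of 27 against 0%. At an unadjusted p under 0.05 the counts were 0, 2, 0, 2 and 0, and DESeq2 called 0 in each of the 5. The log2 differences lay between -0.35 and 0.38 in SAT, with a median SE of 0.18, and between -0.98 and 0.89 in VAT, with a median SE of 0.32. Differences of the size of these standard errors were not detectable with this number of libraries.

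**Figure D5:**
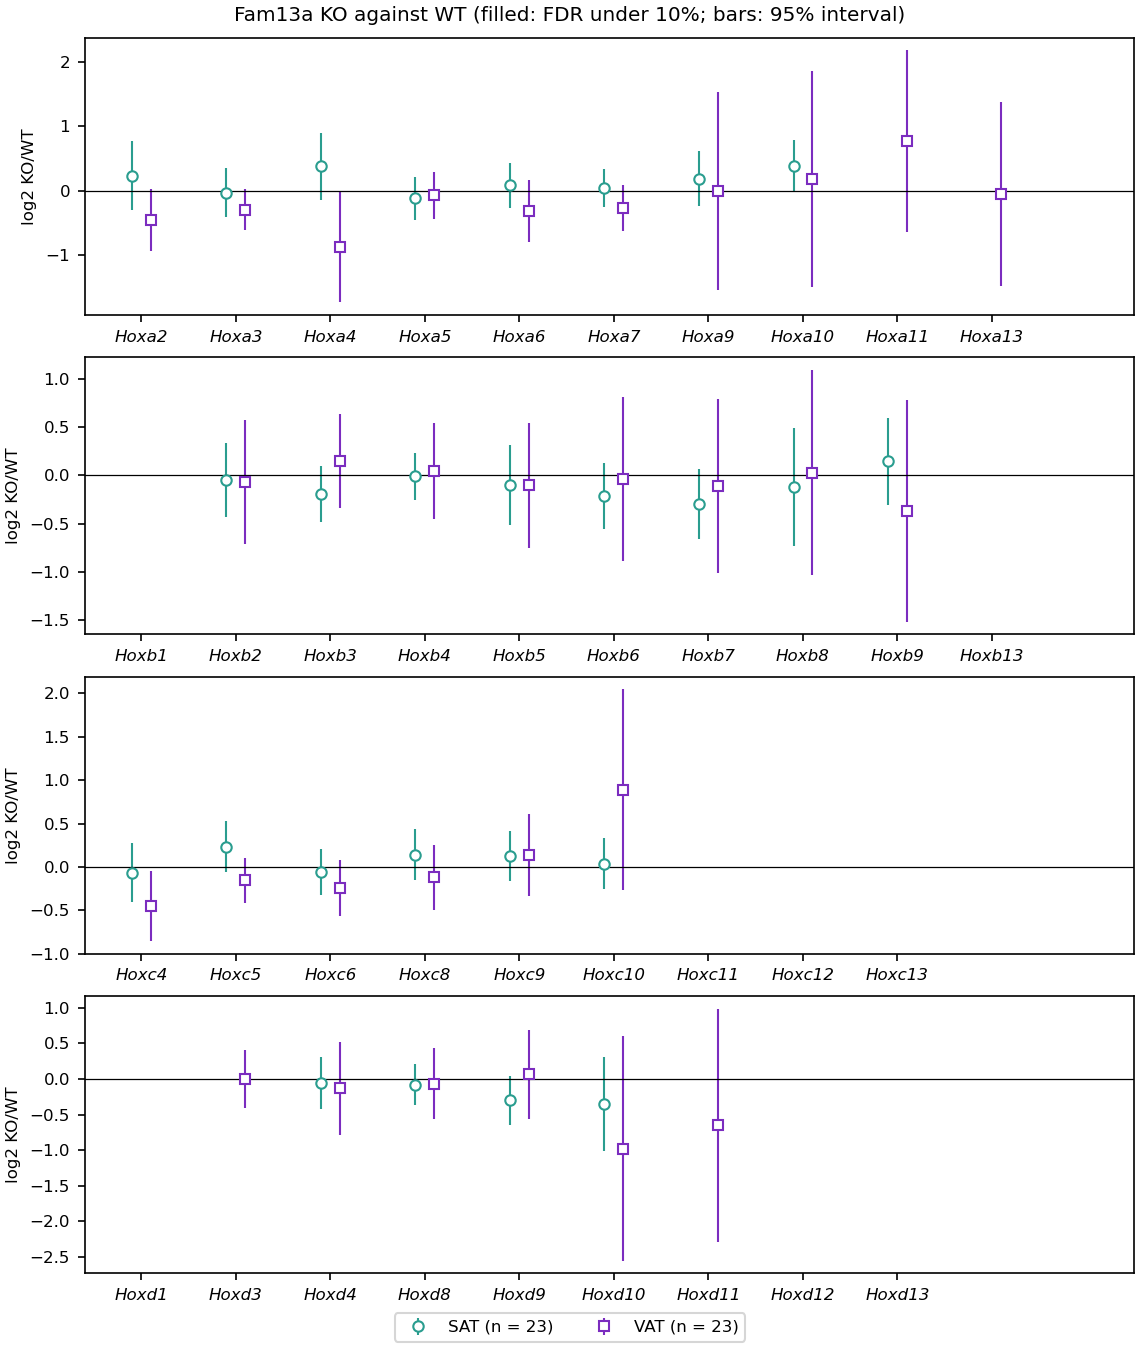
Log2 difference of KO against WT for the tested Hox genes reported here in SAT and in VAT (n = 23 libraries each), by position in the 4 clusters, with 95% intervals. No symbol is filled, since no member had an FDR under 10%, and the VAT intervals are widest at the 5′ genes, from -1.51 to 1.86 for Hoxa10.

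For the genes that separated the male depots the intervals were wide in VAT. Hoxc10 differed between KO and WT by 0.04 in SAT, with an interval from -0.25 to 0.33, and by 0.89 in VAT, with an interval from -0.27 to 2.05. Hoxa9 differed by 0.19 in SAT and by -0.01 in VAT, where its interval ran from -1.55 to 1.53. Without the SAT libraries with lymph node transcripts, which included all 4 chow WT libraries and 1 chow KO library, Hoxc6 was called lower in KO SAT, at -0.42 (SE 0.10, FDR 0.0462). This was 1 of 26 members tested, against 2.84% of all genes higher and 2.2% lower. In male fat without the libraries of both kinds Hoxc6 was called as well, at -0.50 (FDR 0.0978). It was 1 of 27 members there, against 0.153% of all genes higher and 0.251% lower. In the full SAT set Hoxc6 ranged from 5.73 to 10.8 CPM in 11 WT libraries and from 5.44 to 11.1 CPM in 12 KO libraries.

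Partners and regulators of the Hox genes were read against all genes of the same comparison, of which 20.4% were higher and 14.7% lower in male VAT than in SAT, and 13.2% and 14.3% in female VAT. Of the 9 Pbx, Meis and Pknox partners, 2 were higher and 1 was lower in male VAT than in SAT, with Meis1 at 1.23 (SE 0.11, FDR 8.33e-10), Pbx4 at 1.68 and Pbx3 at -0.15. In females 2 of 8 were higher, Meis1 at 0.82 and Meis2 at 0.54. Of the chromatin regulators of Hox genes, 0 of 24 were higher and 9 were lower in male VAT, among them the Trithorax genes Ash1l at -0.23 and Kmt2a at -0.50, the Polycomb gene Cbx7 at -0.57 and the demethylase Kdm6a at -0.20. In females 1 was higher and 8 were lower, led by Ezh2 at -0.57 and Phc3 at -0.35, both Polycomb genes. HFD against chow in VAT, with 21% of all genes higher and 23.2% lower, called 2 of the partners higher and 3 lower, and 2 of the regulators higher and 11 lower, among them Cbx7 at -1.13 and Kdm6a at -0.42.

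Noncoding and flanking genes of the clusters partly went with their neighbors. In female VAT, Hoxa11os, which runs antisense to Hoxa11 over 800 bases of exon, ranged from 0.382 to 0.672 CPM and was at 0 in female SAT, at least 25.7-fold higher. In female VAT 3 of 14 genes of this list were higher and 2 were lower, and in male VAT 3 of 13 were higher and 1 was lower, with Hoxd3os1 at 1.53 (SE 0.29, FDR 0.000259). On HFD in VAT 2 of 13 were higher and 5 were lower, among them the Hoxa cluster transcripts Hoxaas3 at -1.13 and Hotairm1 at -1.10. Reads from a gene and its antisense partner were counted with strand only if the strand column of the table was the right one, which was not given in the sources used here.

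Other positional transcription factors included the larger depot differences. Of 31 tested in males, 8 were higher and 14 were lower in VAT, with Wt1 at 8.97 and Bnc1 at 7.76, which mark mesothelium. Among the lower ones were the limb and body wall genes Tbx15 at -6.86 and Shox2 at -5.78, and also Lhx8 at -5.68. In females 5 of 30 were higher and 14 were lower, with Irx2 at -9.13, Lmx1b at -8.34, Irx1 at -6.86, Tbx15 at -5.62 and Shox2 at -4.61. Mesothelium markers summed to 34.1 to 215 CPM in male VAT and 0.826 to 5.53 CPM in male SAT. They summed to 52.7 to 261 CPM in female VAT and 34.1 to 67.4 CPM in female SAT. Of these 6 markers, Upk3b was at 0 to 0.0879 CPM in female SAT and 21.1 to 108 CPM in female VAT. The sum in female SAT thus came from other markers of the list and may not read mesothelium. Mammary epithelium markers summed to 51.5 to 121 CPM in female SAT and 0.162 to 0.555 CPM in female VAT. The part of these cells in the Hox differences was not tested. Genotype called 1 gene of these lists in SAT, Gata6 at -0.43, and none in VAT, liver or between the depots. In male fat it called the regulators Jarid2 at -0.27, Ash1l at -0.17, Cbx7 at -0.38 and Suz12 at -0.20 and the flanking gene Mtx2 at 0.32, against 3.97% of all genes. Without the SAT libraries with lymph node transcripts, which included all 4 chow WT ones, 0.0106% of all genes were called in male fat and none lower.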

How the data were processed

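Total RNA of SAT, VAT and liver was sequenced from TruSeq Stranded libraries. The deposited values were raw counts of reads per gene, which the authors made by aligning to GRCm38/mm10 with STAR and Gencode M11, and the submitters' processing notes give STAR version 2.5.3a. Which strand column the counts came from was not given in the sources used here. Gene symbols and exon lengths were taken from GENCODE M21, which held 48435 of the 48795 genes, and 0 columns lacked a sample. Groups came from the sample titles, and nothing in the labels says that replicates were separate animals, so p-values measure the spread between these libraries.

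The counts went into edgeR 4.0.16, run in R 4.3.3, and were filtered with filterByExpr by group, scaled by TMM and tested with glmQLFit and glmQLFTest, with Benjamini-Hochberg adjustment over all genes tested and an FDR of 10%. Depot, diet, sex and genotype were fitted with the other factors as covariates, and interactions were fitted as terms. Standard errors were derived from the test statistic, and 95% intervals from them. The study's RNA quality, extraction time and hidden factor covariates were not used here. Hox members, gene lists and tests were chosen with earlier results of these data known. Called members are named, and where more than 8 were called those with the smallest p and those at the cluster ends, with at most 5 called genes of each other list. Markers of cell types were summed as CPM, and a library was said to stand apart above 1000 CPM of epididymis, 100 CPM of testis or 100 CPM of lymph node transcripts. That rule, the testis genes and the fits without these libraries, as well as those with fibroblast or mesothelium markers as a covariate, were chosen after seeing the data.

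Alternatives were DESeq2 1.42.0, RLE size factors, no filter, an FDR of 5%, ribosomal RNA left out of library sizes, the second flow cell left out, single diets, genotypes, sexes or lanes, marker sums as covariates, and each library left out in turn. The tests were run on simulated counts beforehand. Depth bounds the weakest genes. A fold against a group at 0 was computed from 3 counts over the group, which covers counting error only. Promoter sequences are from RefSeq. Single genes that entered the fits and counts are not reported here by name.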

Additional observations from a re-analysis of the deposited data

Results flagged for a closer look

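Among 80 checks of a gene in a group of 4 libraries, 7 found a library far from the other 3 of its group by Dixon's test, where chance flags about 1 in 20 groups. Hoxb9 was at 18.9 CPM in the chow WT 2 VAT library, where the next was at 1.13 CPM, and at 14.3 CPM in the chow KO 1 VAT library, where the next was at 1.35 CPM. Both libraries held epididymis transcripts. Hoxc8 was at 15.6 CPM in that same chow KO 1 VAT library, below the next at 41 CPM. Hoxa4 was at 6.96 CPM in the HFD WT 4 VAT library, with the next at 0.595 CPM, and at 3.67 CPM in the chow KO 4 VAT library, with the next at 1.1 CPM. These were the libraries with testis transcripts, and Hoxa4 is known to be expressed in male germ cells. The part of such cells in these Hoxa4 levels was not tested. Hoxa4 was also apart in a chow WT SAT library (replicate 1), at 0.864 CPM with the next at 0.407, and in a female KO SAT library (replicate 2), at 1.16 CPM with the next at 0.757. Testis transcripts summed to 0 CPM in both of these SAT libraries.

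Depot differences on HFD differed between the sexes, by a test of the interaction, for 17 members, all with the greater VAT value in females. The log2 difference of differences was 4.61 for Hoxc10, 4.60 for Hoxa10, 1.67 for Hoxc9, 0.82 for Hoxc5 and 1.75 for Hoxd9. Diet differences differed between the male depots, again by the interaction, for 19 members. It was -4.79 for Hoxb9, -1.92 for Hoxb3, -1.48 for Hoxa7, -3.55 for Hoxb8 and -1.53 for Hoxc8. Of these 19, 6 were called without the libraries that stood apart.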

How the results depend on the processing

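Of 141 counts of called members under alternatives other than leaving out a library, 121 stayed within 1.5 times the reported count. The male depot count of 6 became 19 on chow alone, 16 on HFD alone, 18 on HFD alone and 12 on both diets without the libraries of both kinds, and 0 in lane 4 alone, where the single SAT library was taken to vary like the VAT libraries, and the female depot count of 14 became 1 in lane 7 alone. The SAT diet count of 7 became 11 in WT alone, 0 in KO alone, 0 with the lymph node sum as a covariate and 4 without the libraries with lymph node transcripts. The VAT diet count of 21 became 11 in WT alone, 9 with the epididymis sum and 10 with the fibroblast sum as a covariate. Diet by depot gave 3 calls without the lymph node libraries and 6 without both kinds, in place of 19. Diet in liver gave 1 without a filter in place of 0, genotype in SAT 1 without the lymph node libraries and in male fat 1 without both kinds in place of 0, and sex in SAT 1 without a filter and 1 at an FDR of 5% in place of 2. Fewer libraries entered the single-diet, single-genotype and single-lane fits. For the other changes the cause was not tested.

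Leaving out each library in turn gave 5 to 8 calls for the male depots, 11 to 14 for the female depots, 16 to 19 for depot by sex, 27 to 28 for each depot against liver, 6 to 9 for diet in SAT, 19 to 22 for diet in VAT, 0 to 1 for diet in liver, 19 to 22 for diet by depot, 1 to 3 for sex in SAT and 19 to 25 for sex in VAT. It gave 0 to 0 in all 5 genotype tests. Liver diet reached 1 in 9 of 16 fits, namely without chow KO 1, 2, 3 or 4, chow WT 3 or 4, HFD KO 3 or 4 or HFD WT 1. Sex in SAT fell to 1 without female KO 3 or without male KO 2, KO 4, WT 1 or WT 4.

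Of 1391 gene values under the other alternatives, 1230 kept direction and call, 151 kept direction only and 10 reversed. Hoxc4 between the male depots was -0.052 on HFD alone, -0.05 on HFD without the libraries of both kinds and -0.81 in lane 4, and Hoxd8 -0.31 in lane 4. Hoxc10 between the female depots was -0.033 in lane 7. Without the lymph node libraries the SAT diet difference was -0.13 for Hoxc5, -0.083 for Hoxc9 and -0.046 for Hoxc8. With the epididymis covariate the VAT diet difference was 0.95 for Hoxb7 and 0.21 for Hoxb6.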
